A study of Mus musculus with 109 samples.

Results

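The 10 genes described here mark the disease-associated state of microglia: Trem2, Tyrobp, Clec7a, Itgax, Axl, Apoe, Lpl, Cst7, Spp1 and Gpnmb. They were chosen by name as genes known for that state, and all 10 were found among the 37315 genes of the count table. These genes and the further lists below were picked with earlier results of these data known. The shares of all genes beside their counts are thus given for scale and not as a test. Messenger RNA was sequenced from whole mouse retinas, 86 in batch 1 and 23 in batch 2 as the labels name them, of 64 mice in all. Both eyes came from 45 of the mice, and 1 library was made per retina. Each eye had been injected into the vitreous with PBS, tumor necrosis factor (TNF), interleukin 1 alpha (IL1A) or IL1A+TNF, and PBS was in most mice the fellow eye of a cytokine eye. The mice were males and females between 2 and 6 months of age, either WT (C57BL/6J) or Sarm1-/-, which lack the axon degeneration enzyme SARM1 in every tissue from birth and not in 1 cell type.

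In batch 1 the WT retinas 2 days after injection were 31 with PBS, 8 with TNF, 9 with IL1A and 10 with IL1A+TNF. WT retinas of the same batch were also taken at day 14 (7 PBS, 6 TNF) and at day 35 (6 PBS, 9 TNF). Batch 2 held day 2 retinas alone, with 5 WT PBS, 6 WT IL1A+TNF, 6 Sarm1-/- PBS and 6 Sarm1-/- IL1A+TNF. All eyes had been injected, so the treatment effects below are against PBS injection unless another group is named. No uninjected eye was analysed here. Libraries held between 30014757 and 79064488 counted reads, with a median of 39374202. The 5 rod genes used as a check of the tissue summed to between 19070 and 55750 CPM over the groups, where CPM are read counts scaled to the size of the library. All 15 microglial identity genes of the list used here passed the filter on low counts at day 2. Lens genes varied widely among retinas of 1 group, from 0.276 to 2985 CPM in the day 2 PBS retinas of batch 1.

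Microglia are the resident macrophages of the retina. Around dying neurons, myelin debris or amyloid they leave their resting state and take up a program of phagocytosis, lysosomal digestion and lipid handling that is called disease-associated. TREM2 is a surface receptor for lipids and apolipoproteins that has no signalling tail of its own and signals through the adaptor TYROBP, and full entry into the program depends on it. Several of the genes are not restricted to microglia: Apoe is made by Müller glia and astrocytes, Axl by endothelium and glia, Spp1 (osteopontin) by some retinal ganglion cells (RGCs), Gpnmb by pigment cells, and Itgax and Clec7a by dendritic cells, monocytes and neutrophils. These are whole retinas, so more cells of a type and more RNA per cell cannot be told apart in any value below.

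The genes lie apart from each other, on chromosomes 2, 5, 6, 7, 8 and 17 of the mouse genome build GRCm38. Chromosome 7 holds Apoe (19696109 to 19699188, minus strand), Axl (25757273 to 25788705, minus), Tyrobp (30413760 to 30417585, plus) and Itgax (128129547 to 128150657, plus). Chromosome 6 holds Gpnmb (49036546 to 49070929, plus) and Clec7a (129461591 to 129472779, minus). Trem2 lies on chromosome 17 (48346401 to 48354147, plus), Lpl on chromosome 8 (68880491 to 68907448, plus) and Cst7 on chromosome 2 (150570415 to 150578944, plus). Spp1, on the plus strand of chromosome 5 from 104435118 to 104441050, shares 309 exonic bases with the predicted gene Gm42793 on the same strand, and no other member shares exonic bases with another gene. The 250 bases before the start are shown for the members that rose after both IL1A and IL1A+TNF and have a RefSeq promoter entry, since these genes moved together. RefSeq (GRCm38.p6) held an entry for 8 of the 10 members, and Tyrobp and Lpl had none. Capitals mark the letters of a motif, each searched on both strands: the PU-box GAGGAA and the AP-1 pattern TGANTCA, which do not overlap in these windows. Each window is written in the direction of its gene, and a motif on the other strand appears as its reverse complement.
Trem2, chr17:48346151-48346400, plus strand: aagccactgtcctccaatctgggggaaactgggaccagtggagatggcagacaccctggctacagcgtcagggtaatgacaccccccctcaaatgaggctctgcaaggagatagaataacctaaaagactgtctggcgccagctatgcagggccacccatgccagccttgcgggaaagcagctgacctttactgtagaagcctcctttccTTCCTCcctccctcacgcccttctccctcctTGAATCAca
Clec7a, chr6:129472780-129473029, minus strand: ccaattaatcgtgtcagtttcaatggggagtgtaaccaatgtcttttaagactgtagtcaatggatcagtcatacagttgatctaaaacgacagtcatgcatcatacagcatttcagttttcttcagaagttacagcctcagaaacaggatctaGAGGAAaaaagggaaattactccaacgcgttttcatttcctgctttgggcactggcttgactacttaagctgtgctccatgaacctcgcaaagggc
Itgax, chr7:128129300-128129549, plus strand: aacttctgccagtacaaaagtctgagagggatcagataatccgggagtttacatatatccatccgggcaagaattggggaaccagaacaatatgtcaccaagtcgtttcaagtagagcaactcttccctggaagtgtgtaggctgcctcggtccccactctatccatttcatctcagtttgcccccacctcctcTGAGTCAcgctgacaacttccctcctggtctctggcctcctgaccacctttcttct
Axl, chr7:25788734-25788983, minus strand: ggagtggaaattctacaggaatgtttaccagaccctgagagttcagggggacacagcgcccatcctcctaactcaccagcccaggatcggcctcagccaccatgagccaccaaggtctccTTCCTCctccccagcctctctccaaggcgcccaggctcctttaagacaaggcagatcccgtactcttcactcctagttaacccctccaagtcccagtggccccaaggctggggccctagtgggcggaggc
Spp1, chr5:104434861-104435110, plus strand: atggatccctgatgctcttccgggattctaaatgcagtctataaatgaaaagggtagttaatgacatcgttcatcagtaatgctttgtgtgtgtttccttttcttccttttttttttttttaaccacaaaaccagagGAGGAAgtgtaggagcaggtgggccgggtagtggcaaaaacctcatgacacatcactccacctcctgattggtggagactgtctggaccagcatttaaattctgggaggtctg

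The PU-box letters, which the myeloid factor PU.1 is known to bind, stood in the Trem2, Clec7a, Axl and Spp1 windows. The AP-1 letters TGANTCA, where N is any base, are a loose form of the site of JUN and FOS. They stood as TGAATCA in the Trem2 window and as TGAGTCA in the Itgax window. Counted from the start, the PU-box began at position -40 in Trem2, -96 in Clec7a, -130 in Axl and -113 in Spp1, and the AP-1 letters at -9 in Trem2 and -56 in Itgax. Of 32851 RefSeq promoter windows of the same length, 23.3% held the PU-box letters and 6.75% the AP-1 letters. The window of Apoe held the PU-box letters at -250, and those of Cst7 and Gpnmb held neither. The E-box CACGTG, in 6.02% of all windows, and the kB site GGANTTTCC, in 1.07%, were in none of the 8 windows. A match is a run of letters and not a measured binding site, and a missing match says only that the letters are not in this window.

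Per kilobase of exon, the members covered a wide range of levels in the 31 day 2 PBS retinas of batch 1. Apoe had a median of 190.9 CPM per kilobase, far above Gpnmb at 39.6 and Spp1 at 23.2. Axl, at 7.96, and Tyrobp, at 6.71, followed. Lpl stood at 2.17, Clec7a at 1.32, Cst7 at 0.516, Trem2 at 0.497 and Itgax at 0.321 CPM per kilobase. Apoe, Gpnmb and Spp1 thus stood above the receptors Axl, Clec7a and Trem2 by this measure.

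At day 2, IL1A+TNF raised 7 of the 10 genes in WT retinas of batch 1, and none fell. The genes that rose were Trem2, Tyrobp, Clec7a, Itgax, Axl, Spp1 and, to a lesser degree, Apoe. Of all 19548 genes tested, 24.9% rose at the same threshold, a Benjamini-Hochberg adjusted p under 0.05 from limma-voom. IL1A alone raised 6 of the 10, the same genes without Apoe, against 12% of all genes tested, and these comparisons share the 31 PBS retinas. TNF alone raised Trem2 and Itgax, against 0.614% of all genes tested, and this count depended on which mice were included. Where groups are said below not to overlap, the share of all genes that separated as fully was not counted.

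**Figure D1:**
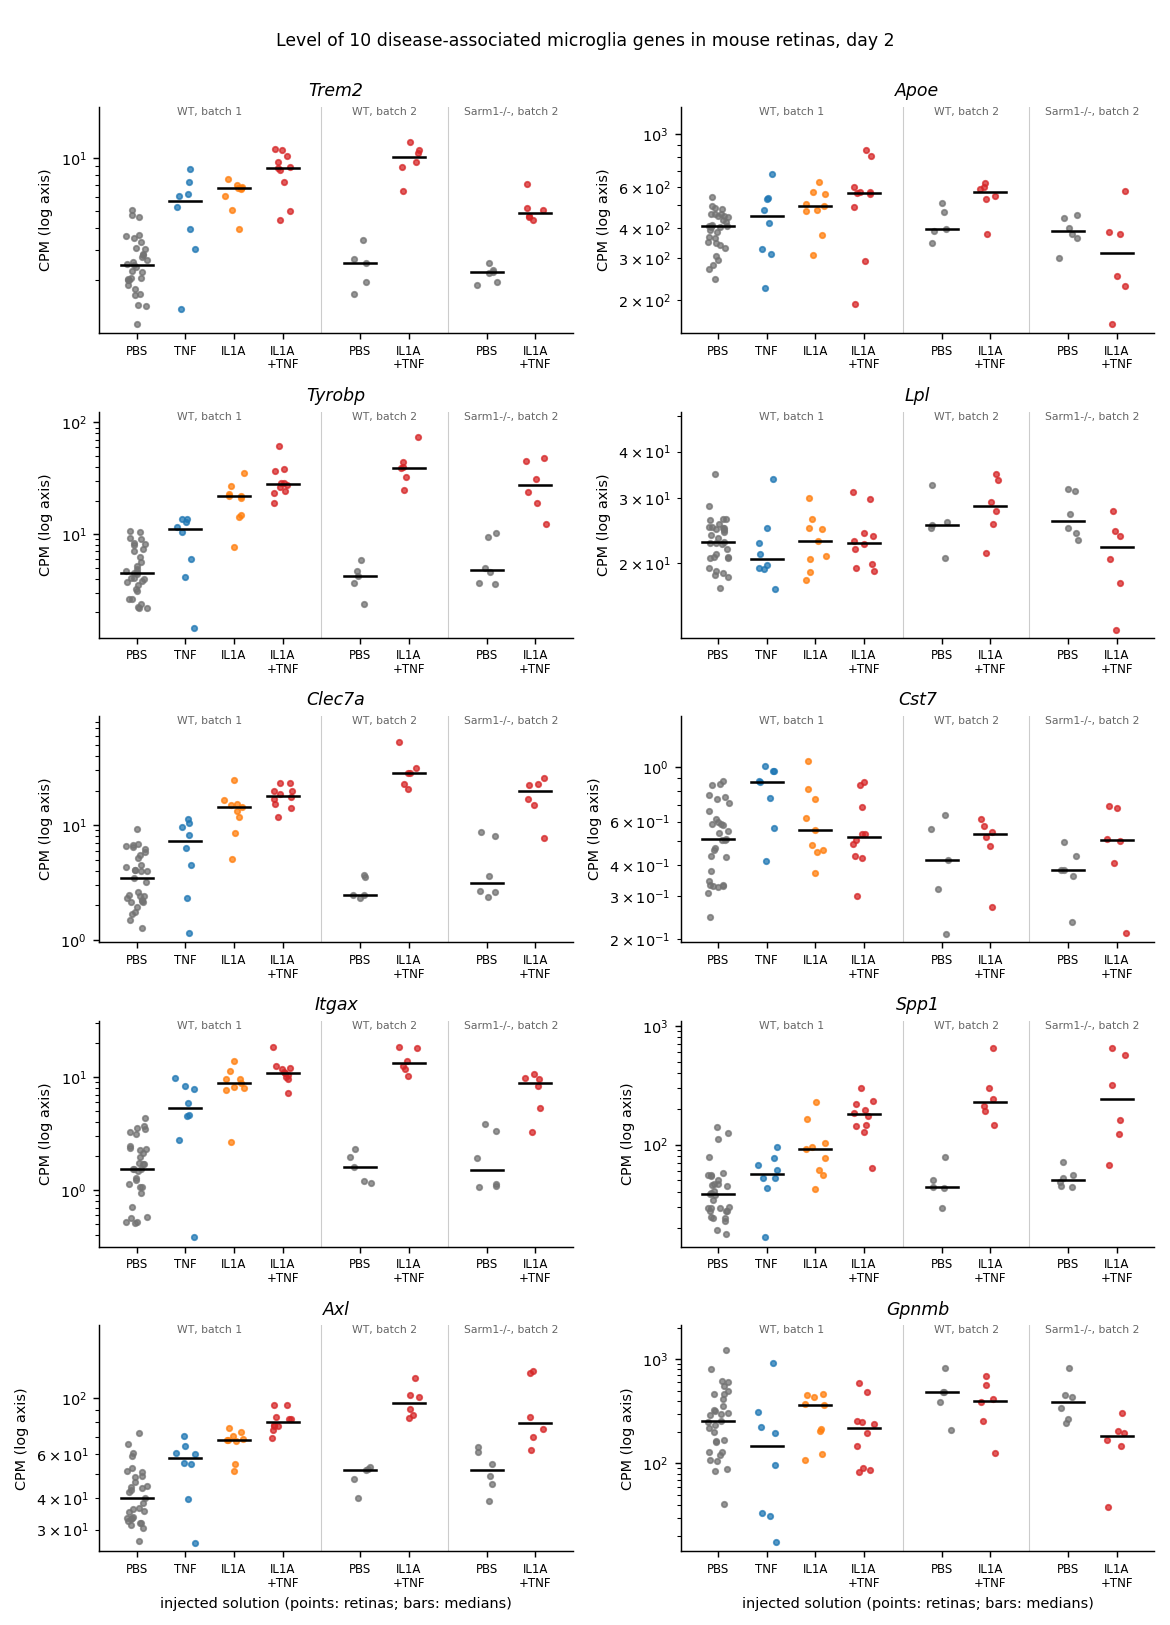
Expression of the 10 genes in each day 2 retina, in CPM on a log axis, for WT batch 1 (PBS, TNF, IL1A, IL1A+TNF), WT batch 2 and Sarm1-/- batch 2 (PBS, IL1A+TNF); points are retinas and bars are medians. In batch 1, for Tyrobp, Clec7a and Itgax the 10 IL1A+TNF retinas all lie above the 31 PBS retinas, while for Lpl and Gpnmb no cytokine retina lies above the highest PBS retina.

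1 mouse stood apart before any test. In the mouse of TNF replicate 6 the TNF retina had the low levels and its PBS retina, PBS replicate 17, the high ones. Trem2 was 1.38 CPM in its TNF retina and 5.06 in its PBS retina, which was the highest of all 31 PBS retinas. Clec7a was 1.15 CPM against 9.26, again the highest PBS value, and Tyrobp was 1.44 against 9.23. Itgax was 0.385 CPM in the TNF retina and 3.68 in the PBS retina. For these 4 genes the eye labelled TNF lay at or below the low end of the PBS eyes and the eye labelled PBS at their high end. Tests of TNF in the members are therefore given with and without both retinas of this mouse. The counts of other gene lists after TNF are given with all retinas only. Over all genes, TNF at day 2 gave 128 calls with this mouse and 453 without both retinas of this mouse. Whether the labels of its eyes were exchanged was not tested.

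Trem2, the lipid receptor, ranged from 1.13 over a median of 2.46 to 5.06 CPM in the 31 PBS retinas. It ranged from 1.38 over 5.67 to 8.63 CPM after TNF, from 3.92 over 6.70 to 7.54 after IL1A and from 4.39 over 8.78 to 11.3 after IL1A+TNF. The groups overlapped with PBS, although 8 of the 10 IL1A+TNF retinas, 7 of the 9 IL1A retinas and 5 of the 8 TNF retinas were above the highest PBS retina. The log2 fold change was 1.73 ± 0.167 (SE) for IL1A+TNF, a 3.32-fold rise (adjusted p = 3.4e-13, limma). It was 1.33 ± 0.183 for IL1A (adjusted p = 5.16e-08, limma) and 0.94 ± 0.207 for TNF (adjusted p = 0.0104, limma).

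Tyrobp, the adaptor that carries the TREM2 signal, ranged from 2.18 over 4.47 to 10.8 CPM with PBS and from 1.44 over 11.1 to 13.8 CPM with TNF. After IL1A it ranged from 7.66 over 21.8 to 35.5 CPM, and after IL1A+TNF from 19 over 28 to 61. The IL1A+TNF retinas did not overlap with PBS, and 8 of the 9 IL1A retinas were above every PBS retina. Tyrobp rose 6.14-fold after IL1A+TNF (log2 fold change 2.62 ± 0.204, adjusted p = 2.37e-16, limma) and 4.23-fold after IL1A (2.08 ± 0.219, adjusted p = 3.63e-11).

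Clec7a, the C-type lectin dectin-1 that binds fungal glucans and signals through SYK, ranged from 1.27 over 3.48 to 9.26 CPM with PBS and from 1.15 over 7.24 to 11.2 CPM with TNF. It ranged from 5.07 over 14.3 to 24.6 CPM with IL1A and from 11.8 over 18.1 to 23.5 with IL1A+TNF. Again no IL1A+TNF retina overlapped with PBS, and 7 of the 9 IL1A retinas stood above it. The rise was 4.92-fold after IL1A+TNF (log2 fold change 2.30 ± 0.199, adjusted p = 9.02e-15, limma) and 3.84-fold after IL1A (1.94 ± 0.214, adjusted p = 1.37e-10).

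Itgax, which encodes the integrin CD11c, ranged from 0.516 over 1.54 to 4.34 CPM with PBS and from 0.385 over 5.30 to 9.77 CPM with TNF. With IL1A it ranged from 2.69 over 8.84 to 13.9 CPM and with IL1A+TNF from 7.23 over 10.9 to 18.5. Every IL1A+TNF retina, 8 of the 9 IL1A retinas and 6 of the 8 TNF retinas exceeded the highest PBS retina. Itgax had the largest fold changes of the 10 genes in each of the 3 treatments. The log2 fold changes were 2.79 ± 0.255 for IL1A+TNF (adjusted p = 6.13e-14, limma), 2.44 ± 0.271 for IL1A (adjusted p = 1.69e-10) and 1.46 ± 0.326 for TNF (adjusted p = 0.0125).

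Axl, a TAM receptor kinase for phosphatidylserine-bound GAS6, ranged from 27 over 40.1 to 72.5 CPM with PBS and from 26.6 over 57.7 to 70.4 with TNF. It ranged from 51.5 over 68.1 to 76.0 CPM with IL1A and from 69.4 over 80.3 to 94.0 with IL1A+TNF. With IL1A+TNF 9 of the 10 retinas were above every PBS retina, and with IL1A 2 of the 9. The change was smaller than for the receptors above but even between mice, at 1.97-fold after IL1A+TNF (log2 fold change 0.98 ± 0.111, adjusted p = 5.76e-11, limma) and 1.62-fold after IL1A (0.69 ± 0.116, adjusted p = 4.37e-06).

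Spp1, the secreted integrin ligand osteopontin, ranged from 17.6 over 38.3 to 140.6 CPM with PBS and from 16.6 over 56.6 to 95.7 with TNF. It ranged from 42.2 over 92.7 to 230.8 CPM with IL1A and from 63.6 over 180.1 to 299.9 with IL1A+TNF. Some PBS retinas were as high as IL1A retinas, of which 2 of 9 exceeded the highest PBS retina, against 8 of 10 with IL1A+TNF. Spp1 rose 4.1-fold after IL1A+TNF (log2 fold change 2.04 ± 0.243, adjusted p = 2.58e-10, limma) and 2.27-fold after IL1A (1.18 ± 0.251, adjusted p = 0.000255).

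Apoe, the lipid carrier and TREM2 ligand, ranged from 243.8 over 408.1 to 542.2 CPM with PBS and from 223.9 over 451.0 to 682.2 CPM with TNF. After IL1A the range was 308.7 over 499.6 to 629.8 CPM, and after IL1A+TNF 191.2 over 566.1 to 854.9. The IL1A+TNF retinas spread to both sides of PBS, with 7 above the highest PBS retina and 1 below the lowest. Apoe rose 1.33-fold after IL1A+TNF (log2 fold change 0.41 ± 0.139, adjusted p = 0.012, limma). The difference for IL1A was 0.30 with a 95% confidence interval from 0.00959 to 0.585 on the log2 scale (adjusted p = 0.142), and it passed without IL1A replicate 7 (adjusted p = 0.0489).

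The other three members did not pass the test in any of the 3 treatments against PBS. Lpl, the lipase that frees fatty acids from lipoproteins, had a median of 22.8 CPM with PBS and 22.7 with IL1A+TNF, and its log2 difference was 0.03 (95% confidence interval -0.132 to 0.189, adjusted p = 0.79, limma). Cst7, which encodes the cathepsin inhibitor cystatin F, had a median of 0.509 CPM with PBS and 0.521 with IL1A+TNF (log2 difference 0.09, interval -0.253 to 0.438, adjusted p = 0.681). Gpnmb, a glycoprotein of lysosomes and melanosomes, had medians of 257.7 and 217.4 CPM (log2 difference -0.28, interval -1.08 to 0.518, adjusted p = 0.581). The spread behind these values was unequal. Lpl ranged from 17.2 to 34.9 CPM among the PBS retinas alone and Gpnmb from 40.7 to 1224 CPM. Cst7 rested on only 10 to 34 reads per PBS retina.

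**Figure D2:**
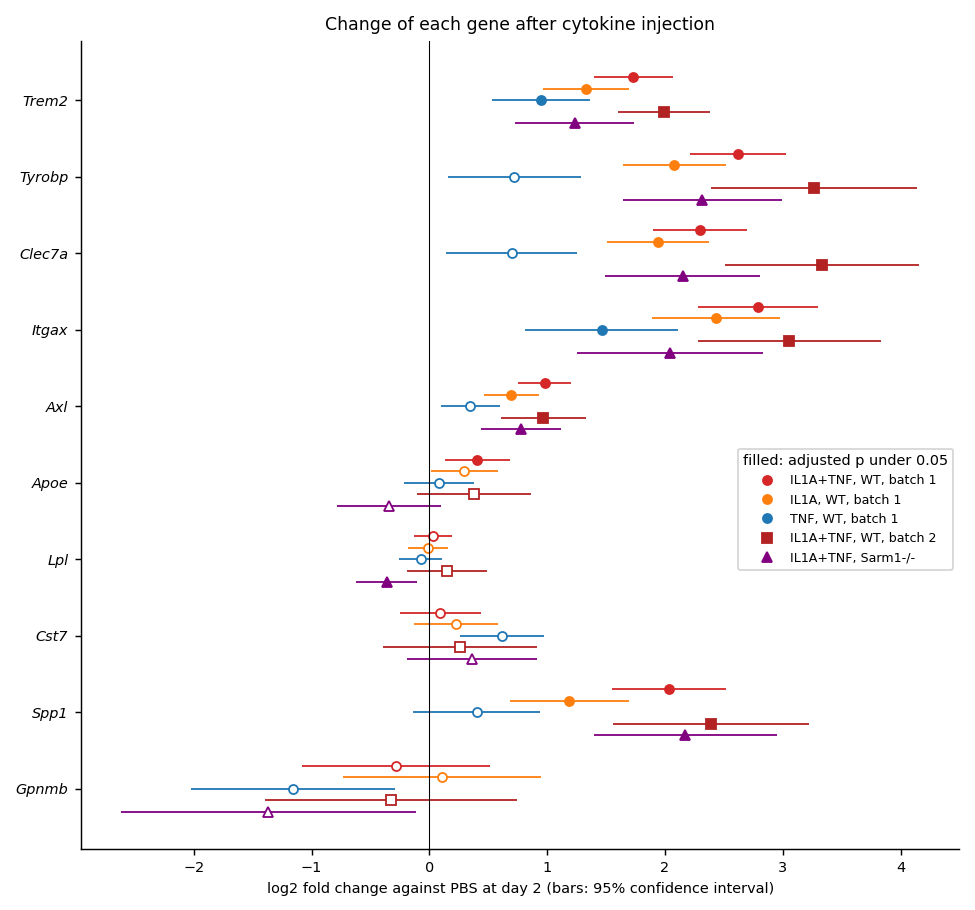
Log2 fold change of each gene for 5 comparisons, with 95% confidence intervals from limma-voom; filled points have an adjusted p under 0.05. Trem2, Tyrobp, Clec7a, Itgax, Axl and Spp1 are filled for IL1A+TNF in both batches and in both genotypes, and Apoe is filled in WT batch 1 at a log2 fold change of 0.41.

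Because most PBS eyes were the fellow eyes of cytokine eyes, the change could also be read within single mice. In all 8 mice with 1 IL1A+TNF and 1 PBS eye, Trem2, Tyrobp, Clec7a, Itgax, Axl and Spp1 were higher in the cytokine eye. The within-mouse log2 difference of Tyrobp ran from 1.19 to 3.66 and that of Axl from 0.759 to 1.22. Apoe was higher in 7 of these 8 mice, with differences from -0.351 to 1.15. In the 7 such IL1A mice the first 5 of these genes were higher in all 7, Spp1 in 6 and Apoe in 5. In the 8 TNF mice Trem2, Tyrobp and Itgax were higher in 7, and Clec7a, Axl, Cst7 and Spp1 in 6. The mouse of TNF replicate 6 was the exception for Trem2, Tyrobp and Itgax, at within-mouse log2 differences of -1.84, -2.64 and -3.11.

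**Figure D3:**
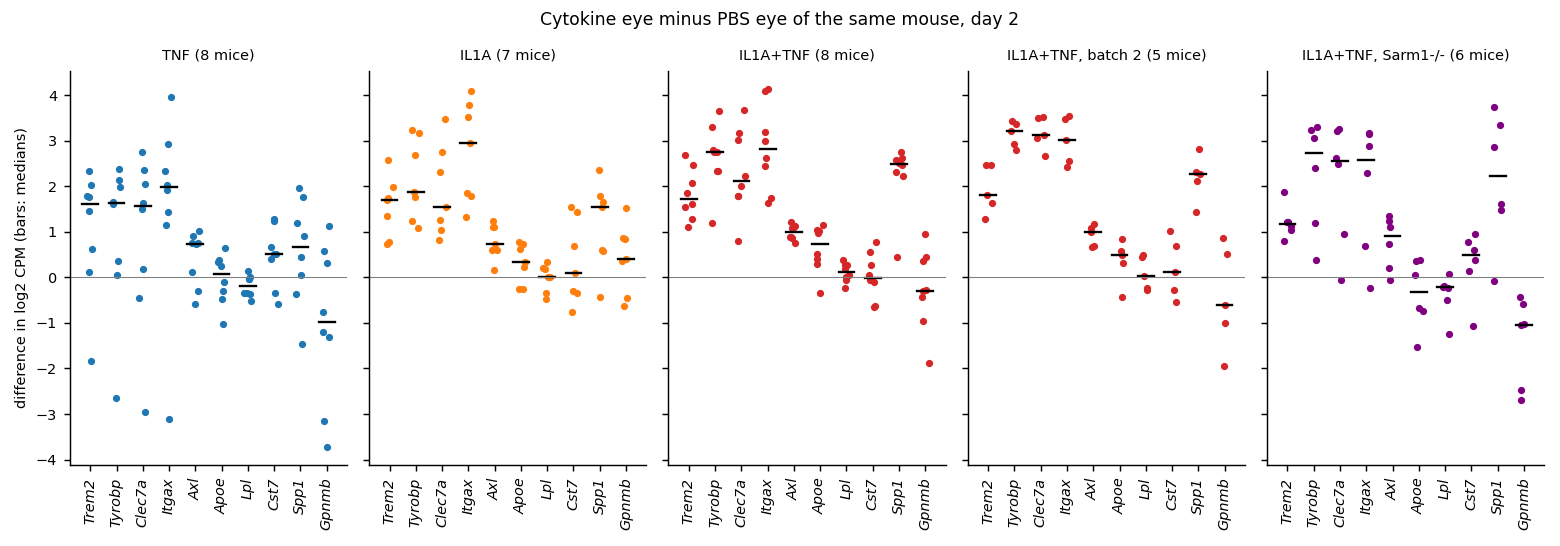
Difference in log2 CPM between the treated and the PBS eye of each mouse at day 2, by gene, for TNF, IL1A and IL1A+TNF in WT batch 1 and IL1A+TNF in WT and Sarm1-/- of batch 2; each point is 1 mouse, bars are medians and the line at 0 is no difference. All 8 IL1A+TNF mice of batch 1 lie above 0 for Trem2, Tyrobp, Clec7a, Itgax, Axl and Spp1, and 1 TNF mouse lies far below 0, at -3.11 for Itgax.

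The TNF result depended on which mice were included, the mouse of TNF replicate 6 among them. With all retinas, TNF raised Trem2 and Itgax, and the log2 differences of Tyrobp (0.72, adjusted p = 0.407), Clec7a (0.70, adjusted p = 0.419), Axl (0.35, adjusted p = 0.309) and Cst7 (0.62, adjusted p = 0.102) did not pass the test (limma). When both retinas of the mouse of TNF replicate 6 were left out, an alternative chosen after seeing the data, 6 of the 10 genes passed. The log2 fold changes were then 2.01 for Itgax (adjusted p = 3.67e-08), 1.21 for Trem2 (2.74e-06), 1.12 for Tyrobp (0.00201), 1.11 for Clec7a (0.00116), 0.73 for Cst7 (0.00944) and 0.48 for Axl (0.0101). With TNF replicate 6 alone left out the same 6 passed. Leaving out TNF replicate 2, 5 or 7 left 0 genes past the threshold, and leaving out replicate 4 left Trem2 (adjusted p = 0.0487). With mouse as a fixed block the count was also 0, with Trem2 at 1.16 (adjusted p = 0.514) and Itgax at 1.92 (adjusted p = 0.434). Spp1 (0.40, adjusted p = 0.797), Apoe (0.08, 0.95), Lpl (-0.07, 0.92) and Gpnmb (-1.16, 0.355) did not pass with all retinas, and 3 of the 8 TNF retinas had less Gpnmb than any PBS retina.

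The cytokine groups were also compared with each other. Against TNF, the IL1A+TNF retinas had more Tyrobp (log2 difference 1.90, adjusted p = 5.43e-07), Spp1 (1.63, 4.26e-05), Clec7a (1.60, 8.94e-06), Itgax (1.33, 0.000833), Trem2 (0.79, 0.00335) and Axl (0.63, 0.000452), from limma. Cst7 was the one member that was lower with IL1A+TNF than with TNF, by a log2 difference of -0.52 (adjusted p = 0.0488), and it missed the threshold by edgeR (0.066) and DESeq2 (0.0682). These 7 of 10 compare with 39% of all genes tested that differed in either direction. Against TNF, IL1A raised Tyrobp (1.36, adjusted p = 0.00241) and Clec7a (1.24, 0.00459), with 5.39% of all genes higher. Without both retinas of the mouse of TNF replicate 6, the same genes passed in both comparisons, and Tyrobp differed by 1.53 and 1.00.

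Between IL1A+TNF and IL1A no member passed the limma test, edgeR or DESeq2, while 10.1% of all genes did by limma. The 4 members with an unadjusted p under 0.05 were Trem2, Tyrobp, Axl and Spp1, and all 4 were higher with IL1A+TNF. The log2 difference of Spp1 was 0.85 (adjusted p = 0.0626), that of Tyrobp 0.54 (0.114) and that of Trem2 0.40 (0.196). Spp1 passed without the sex term (adjusted p = 0.0434) and also once both retinas of the mouse of TNF replicate 6 were left out (adjusted p = 0.0428).

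Whether the effects of IL1A and TNF summed was tested by the departure of IL1A+TNF from the sum of the single log2 effects. No member passed by limma, edgeR or DESeq2, against 3.6% of all genes, and Itgax and Cst7 had an unadjusted p under 0.05. For Itgax the departure was -1.11 (95% confidence interval -1.94 to -0.273, adjusted p = 0.126) and for Cst7 -0.75 (adjusted p = 0.125). Without both retinas of the mouse of TNF replicate 6, Itgax passed at -1.68 (adjusted p = 0.0012) and Trem2 at -0.81 (adjusted p = 0.0477), both less than the sum.

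Sex was a term of each fit. Between female and male retinas 0.363% of all genes differed at day 2 and no member did by limma, edgeR or DESeq2. Tyrobp (0.37, adjusted p = 0.444) and Clec7a (0.44, adjusted p = 0.326) were the 2 with an unadjusted p under 0.05. The effect of IL1A+TNF did not pass the test of a difference between the sexes for any gene of the table (0%). Of the members, Trem2 and Apoe had an unadjusted p under 0.05, at a female minus male effect of -0.82 and -0.79 (adjusted p = 0.755 for both), and edgeR and DESeq2 called none. The 2 IL1A+TNF retinas with the lowest Apoe, at 191.2 and 291.4 CPM, were both female, as were 6 of the 10 in that group.

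The pathway around the receptors moved with them. Of 16 genes of TREM2-TYROBP and C-type lectin signalling tested, 15 rose after IL1A+TNF and 15 after IL1A, and 1 (Inpp5d) after TNF. Their median log2 fold change after IL1A+TNF was 1.68, against -0.023 over all genes. Syk, the kinase that TYROBP recruits, changed by 3.04 on the log2 scale, Ptpn6 by 2.61, Lcp2 by 2.11 and Inpp5d, the inositol phosphatase SHIP1, by 1.68. Of 5 other receptors that use TYROBP, Cd300lb (4.1), Trem1 (3.42) and Clec5a (2.93) rose after IL1A+TNF, whereas Siglech, a receptor of resting microglia, fell by 2.72 on the log2 scale. In all, 4 of the 5 rose and 1 fell, after IL1A+TNF and after IL1A alike.

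A further 24 genes of the disease-associated state were tested, and 19 rose and 2 fell after IL1A+TNF, with a median log2 fold change of 0.85. Lyz2 (3.49), Ccl6 (3.15), Cd68 (2.06) and Csf1 (1.62) were among those that rose. After IL1A, 17 rose and 2 fell, and after TNF Cd68 rose (0.816). Of all genes, 24.9% rose and 25.5% fell after IL1A+TNF, 12% rose after IL1A and 0.614% after TNF.

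The ligand, lipid, integrin and lysosome lists were counted in the same way. The shares of all genes are those just given, and the TAM and MITF lists are too short to set apart from them. Of 17 genes of lipid uptake, storage and efflux, 13 rose after IL1A+TNF and 2 fell, and their median was 0.373. Plin2, which coats lipid droplets, rose by 1.61 on the log2 scale, the lipase inhibitor Angptl4 by 1.12 and the efflux pump Abca1 by 1.03. Of the 4 TAM receptor and ligand genes other than Axl, the ligand Pros1 rose (0.541) and the ligand Gas6 fell by 0.3 after IL1A+TNF, and in all 2 rose and 1 fell. Of 10 integrin genes, 9 rose, Itgb2 by 2.58 and Itgal by 2.41, and of 5 cystatin and cathepsin genes 4 rose, among them Ctss (1.7) and Ctsc (1.12), the cathepsin C that cystatin F inhibits. Of 4 MITF and TFE genes, which drive lysosomal genes and Gpnmb, 3 rose, with a median of 0.239. After IL1A the counts that rose were 7 of 17 (and 2 fell), 1 of 4, 8 of 10, 4 of 5 and 3 of 4 in the same order, and after TNF 1 gene, Ctss (0.874), rose over these 5 lists.

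Markers of several cell types moved with the members. Of all genes tested, 24.9% rose after IL1A+TNF, 12% after IL1A and 0.614% after TNF. Of 15 microglial identity genes, 10 rose and 2 fell after IL1A+TNF and 11 rose after IL1A, and their summed level was 227.3 to 338.8 CPM with IL1A+TNF and 183 to 301.7 with IL1A, against 114.6 to 195.4 with PBS. After TNF the sum ran from 101 to 263.3 CPM and Csf1r (0.715) and Cx3cr1 (0.505) rose. Of 8 monocyte genes 7 rose after IL1A+TNF, Ccr2 by 3.32, and the sum was 301.5 to 747.9 CPM against 97.6 to 234.7 with PBS. Of 8 neutrophil genes 6 rose, Csf3r by 3.79 and S100a8 by 3.92, with a sum of 118.7 to 751.2 CPM against 2.90 to 130.5, while Ly6g had a median of 0 CPM. In lists too short to set apart from the 24.9% of all genes, 3 of 7 dendritic cell genes and 1 of 3 T cell genes tested rose. The part of these cells in the rise of Itgax, Clec7a, Tyrobp and the others was not tested.

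Other retinal markers also moved. After IL1A+TNF 24.9% of all genes rose and 25.5% fell. Of the lists, 8 of 9 RGC genes, 4 of 5 rod genes and 7 of 9 pigment epithelium and melanocyte genes fell. Among 9 Müller glia genes 4 rose and 3 fell. Of 5 astrocyte genes 3 rose and 1 fell, of 9 endothelium and pericyte genes 6 rose and 1 fell, and of 3 lens genes none passed. The sum of the pigment genes was 17.3 to 555.9 CPM with IL1A+TNF and 53.5 to 1229 with PBS. With the pigment score as a covariate, chosen after seeing the data, the log2 difference of Gpnmb turned from -0.28 to 1.3 (adjusted p = 3.14e-06) and Lpl passed at 0.26 (adjusted p = 0.00228). The pigment score was itself lower after the treatment, at a mean of 2.53 with IL1A+TNF and 4.09 with PBS, so the adjusted values do not show that Gpnmb or Lpl rose.

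The 31 PBS retinas of day 2 varied among themselves, and this spread was set against the mean log2 level of the marker lists. Over the microglial identity genes Pearson's r was 0.883 for Tyrobp (Spearman's rho 0.856), 0.872 for Itgax (0.837), 0.782 for Clec7a (0.775), 0.769 for Trem2 (0.731) and 0.747 for Spp1 (0.71). Each had an adjusted p of 6.67e-05 over 40 relations computed by 100000 permutations, the smallest these could give. Without the 2 retinas farthest from the median score the values of r were 0.863, 0.837, 0.732, 0.687 and 0.687 in that order. Axl (r = 0.665, rho 0.615, adjusted p = 0.0004), Apoe (0.606, 0.657, 0.0013) and Lpl (0.423, 0.46, 0.0346) followed, by the same permutation test. For Gpnmb r missed the threshold of the permutation test (0.381, adjusted p = 0.0605, and 0.456 without the 2 farthest retinas) and rho passed it (0.435, adjusted p = 0.0273). Cst7 (0.19, 0.113, adjusted p = 0.409) did not pass this permutation test.

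Gpnmb had its highest correlation with the pigment epithelium and melanocyte score, at r = 0.852 (rho 0.802, permutation adjusted p = 6.67e-05, and 0.763 without the 2 farthest retinas). The Müller glia score correlated with 9 of the 10 members, from r = 0.417 for Lpl to 0.574 for Tyrobp, with Apoe at 0.535 (rho 0.626, permutation adjusted p = 0.00593), and not with Cst7 (-0.0212). Lpl also followed the pigment score (0.525, 0.557, permutation adjusted p = 0.00802). Axl was lower where the RGC score was higher (r = -0.533, rho -0.467, permutation adjusted p = 0.00695, and -0.407 without the 2 farthest). Of the 40 relations, 22 passed. All PBS retinas here are of 1 batch and day, but of both sexes and with different cytokines in the fellow eyes. They include the PBS retina of the mouse of TNF replicate 6, and r without that retina on its own was not computed.

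**Figure D4:**
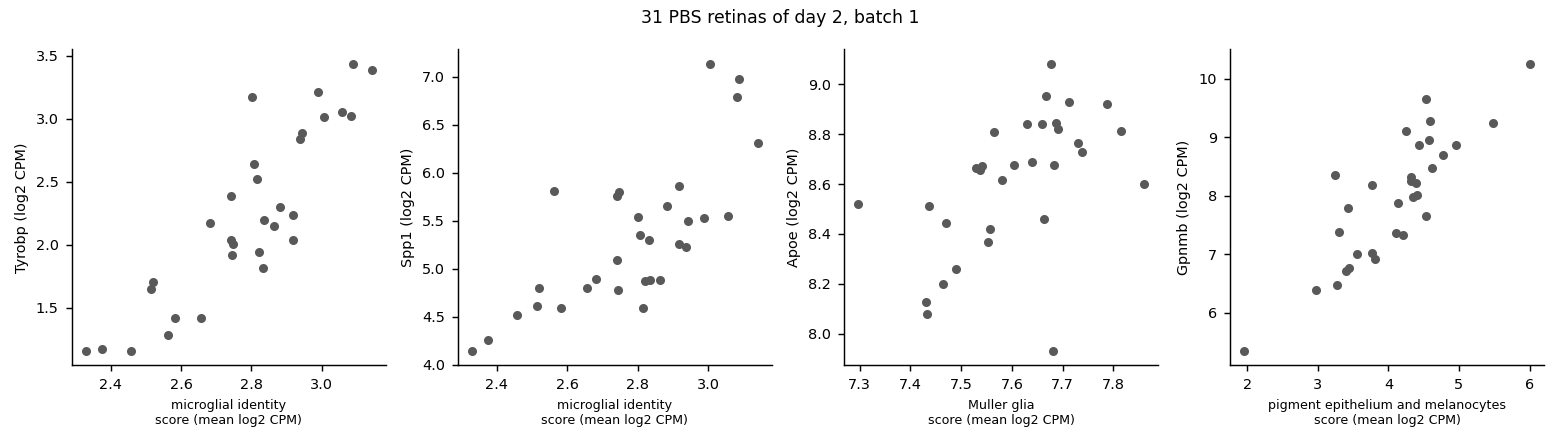
Levels in the 31 day 2 PBS retinas of batch 1 (log2 CPM) against the mean log2 CPM of a marker list: Tyrobp and Spp1 against microglial identity, Apoe against Müller glia and Gpnmb against pigment epithelium and melanocytes; points are retinas. The relation is tightest for Tyrobp (r = 0.883) and Gpnmb (r = 0.852).

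The genes most like each member over all retinas of both batches, once group and sex means were removed, are given as a description. Tyrobp was closest to Lcp1 (r = 0.903), Arhgap30 (0.896) and Cd53 (0.888), all genes of leukocytes. Trem2 was closest to C1qb (0.812), H2-Eb1 (0.789) and Ctss (0.781), Clec7a to Ncf1 (0.804), Tyrobp (0.793) and Ptprc (0.776), and Itgax to Arhgap30 (0.847), Myo1f (0.843) and Lyz2 (0.835). Axl was closest to Grn (0.854), Anxa2 (0.849) and Msn (0.848), and Spp1 to Plin2 (0.85), Lgals3 (0.835) and Sdcbp (0.83). Outside the immune genes, Apoe was closest to Pdk2 (0.831), Pltp (0.805) and Selenop (0.8), Lpl to Mgll (0.853), Pld5 (0.797) and App (0.793), and Gpnmb to Mlph (0.946), Mfrp (0.934) and Bace2 (0.933), of which Mlph is a pigment cell gene and Mfrp a pigment epithelium gene. Cst7 had no close partner, with Pzp (0.443) first. Among the members themselves, Tyrobp and Clec7a (0.793), Axl and Spp1 (0.786) and Tyrobp and Itgax (0.769) were most alike, whereas Tyrobp and Apoe (0.16) and Apoe and Spp1 (0.078) hardly varied together. The retinas of a mouse and the depth of a library are shared by these points.

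TNF was also followed to later days, when no member differed from PBS. At day 14, 0% of all genes passed by limma. Before adjustment 838 genes lay under 0.05, of which Tyrobp and Clec7a were members. Tyrobp ranged from 1.32 over 1.47 to 1.79 CPM in 7 PBS retinas and from 1.09 over 2.19 to 4.35 CPM in 6 TNF retinas, of which 5 were above every PBS retina (log2 difference 0.46, adjusted p = 0.888). Clec7a ranged from 0.732 over 1.03 to 1.91 CPM with PBS and from 0.867 over 1.97 to 2.88 CPM with TNF (0.63, adjusted p = 0.888). Cst7 was higher in the TNF eye of 4 of 4 mice with both eyes, by 0.626 to 1.35 on the log2 scale, but at levels of 0.194 to 0.899 CPM in the TNF retinas (0.61, adjusted p = 0.888). The calls were 0 by edgeR and DESeq2 too.

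At day 35, 0% of all genes passed by limma, and edgeR and DESeq2 called no member. Itgax, at 2 to 9 reads per PBS retina, was too low to test, and of the 9 members tested Axl had an unadjusted p under 0.05. Axl ranged from 15.1 over 18.4 to 19.3 CPM in 6 PBS retinas and from 17.6 over 19.2 to 21.7 CPM in 9 TNF retinas, which overlap (log2 difference 0.15, adjusted p = 0.889). Trem2 had medians of 0.804 and 1.01 CPM. The TNF effect at day 14 less that at day 2, and at day 35 less that at day 2, passed for 0% and 0% of all genes and for no member (limma, edgeR and DESeq2). Gpnmb (1.74, adjusted p = 0.999) at day 14 and Cst7 (-0.72, adjusted p = 1) at day 35 were the members with an unadjusted p under 0.05. Without both retinas of the mouse of TNF replicate 6 no member passed either, with Gpnmb at 1.46 (adjusted p = 0.946) and Cst7 at -0.84 (adjusted p = 1).

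The PBS retinas themselves differed between days. At day 14, 5 of the 10 genes were lower than at day 2 and none higher, against 9.62% of all genes lower. Tyrobp had a median of 1.47 CPM at day 14 and 4.47 at day 2 (log2 difference -1.62, adjusted p = 0.00953, limma), and all 7 day 14 retinas were below the lowest day 2 retina. The others were Clec7a (-1.63, 0.00807), Axl (-0.74, 4.53e-05), Spp1 (-1.29, 0.00281) and Gpnmb (-1.99, 0.0011). Trem2 (-0.74, adjusted p = 0.0607) and Itgax (-1.41, 0.0884) missed the threshold by limma but passed by edgeR (0.00362 and 0.00193). Without both retinas of the mouse of TNF replicate 6 these 2 passed by limma as well, for 7 members in all. The log2 difference of Apoe was 0.31 (adjusted p = 0.122).

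At day 35, 8 of the 10 were lower than at day 2, against 16.9% of all genes lower. Itgax had a median of 0.151 CPM against 1.54 (log2 difference -3.44, adjusted p = 0.00654, limma), Clec7a 0.410 against 3.48 (-2.84, 0.000639), Tyrobp 0.971 against 4.47 (-2.26, 0.00129) and Trem2 0.804 against 2.46 (-1.56, 0.00053). Axl was 18.4 against 40.1 CPM (-1.23, 1.93e-09), and for these 5 genes all 6 day 35 PBS retinas were below all 31 day 2 PBS retinas. The share of all genes that separated in this way was not counted. Spp1 was 16.5 against 38.3 CPM (-1.29, 0.00171), Gpnmb 19.2 against 257.7 (-3.73, 1.44e-06) and Lpl 19.2 against 22.8 (-0.25, 0.048), the last of which missed the threshold without the filter on low counts (0.0733) and without both retinas of the mouse of TNF replicate 6 (0.0671). Apoe was at 353.5 against 408.1 CPM (-0.17, adjusted p = 0.424).

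**Figure D5:**
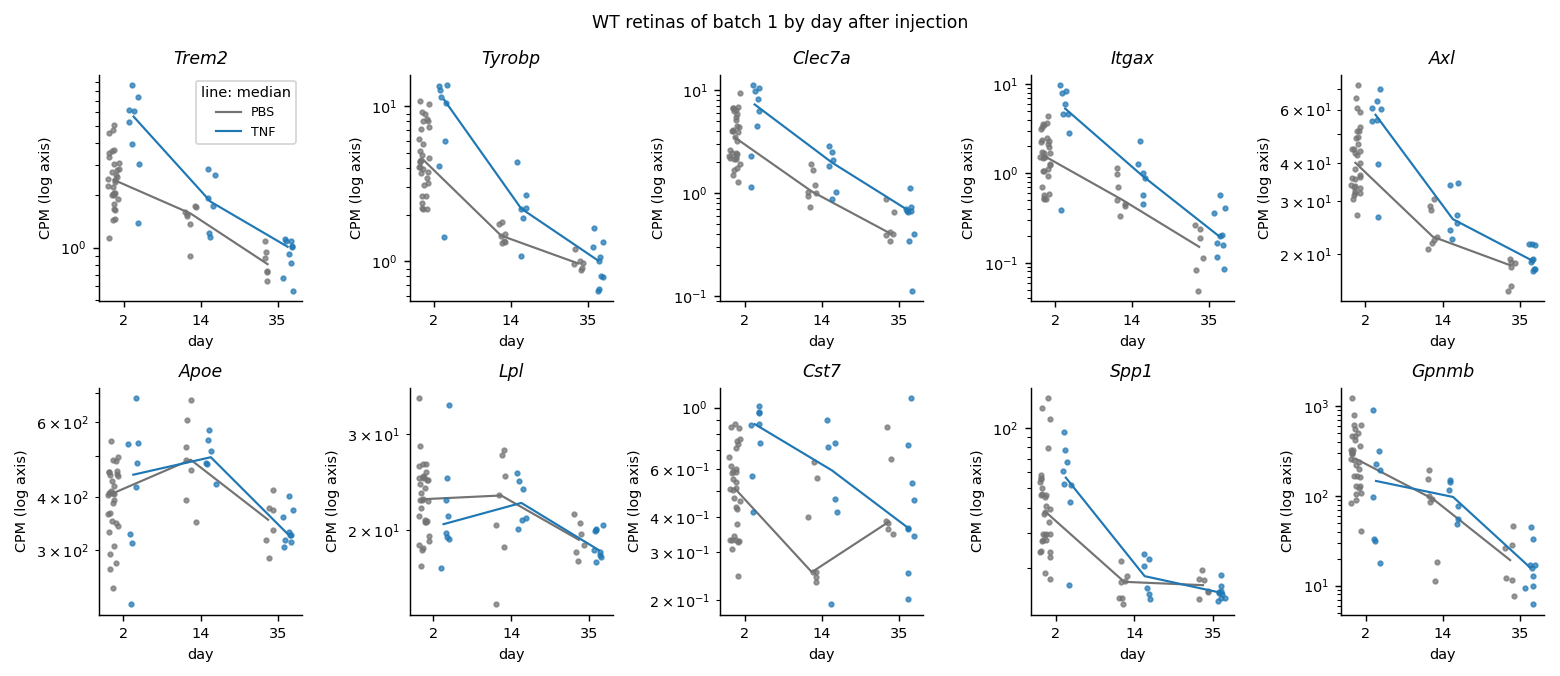
CPM of each gene (log axis) in PBS and TNF retinas of WT mice in batch 1 at days 2, 14 and 35; points are retinas and lines join the medians. For Tyrobp the day 2 PBS retinas run from 2.18 to 10.8 CPM and the day 35 PBS retinas from 0.881 to 1.21 CPM, while Apoe overlaps between the days.

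Other lists fell between these days with the members. At day 35 all 15 microglial identity genes were lower than at day 2, with a summed level of 54.3 to 68.6 CPM against 114.6 to 195.4, and at day 14 13 of 15 were, with a sum of 73.4 to 91.7 CPM. The neutrophil sum was 1.22 to 3.27 CPM at day 14 and 1.38 to 1.86 at day 35, against 2.90 to 130.5 at day 2. Of the 24 further genes of the disease-associated state, 16 were lower and 2 higher at day 14 and 19 lower and 1 higher at day 35. Over all genes, 9.62% were lower and 8.34% higher at day 14, and 16.9% lower and 15.9% higher at day 35. The day of harvest cannot be told apart from the set of mice injected for that day. Nor can it be told apart from the cytokine given to the fellow eye, since IL1A was given at day 2 alone. The part of microglial number in these differences was not tested.

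Batch 2 gave a second set of WT mice for IL1A+TNF at day 2. There, 6 of the 10 genes rose, Trem2, Tyrobp, Clec7a, Itgax, Axl and Spp1, against 13.3% of all genes. Trem2 was 3.39, 2.64, 1.66, 2.52 and 1.95 CPM in the 5 PBS retinas and ran from 6.498 over 10.1 to 12.3 CPM in the 6 IL1A+TNF retinas. Tyrobp was 5.83, 4.18, 2.39, 4.66 and 3.63 CPM with PBS and ran from 25.1 over 39.4 to 73.4 with IL1A+TNF. Clec7a was 3.67, 2.46, 2.30, 2.47 and 3.54 CPM with PBS and ran from 20.5 over 28.5 to 52.6 with IL1A+TNF. No retina of one group overlapped with the other for any of the 6 genes. How many of all genes separated as fully was not counted, so this is not shown to be particular to the members.

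The log2 fold changes in batch 2 were 1.99 for Trem2 (adjusted p = 9.12e-07, limma), 3.26 for Tyrobp (1.93e-05), 3.34 for Clec7a (9.42e-06), 3.05 for Itgax (1.17e-05), 0.97 for Axl (0.000496) and 2.39 for Spp1 (0.000284). Itgax was 2.30, 1.61, 1.15, 1.99 and 1.22 CPM with PBS and at least 10.2 CPM with IL1A+TNF. Spp1 was 78.8, 42.8, 29.2, 50.2 and 44.2 CPM with PBS and ran from 145.8 over 228.5 to 651.9 CPM with IL1A+TNF, the widest spread of the 6. Apoe was 389, 513, 398, 469 and 349 CPM with PBS and 379.6 over 567.3 to 623 with IL1A+TNF, and its difference of 0.38 did not pass (adjusted p = 0.258). Lpl (0.15), Cst7 (0.26) and Gpnmb (-0.33) did not pass either. In a fit of both batches 7 genes rose, Apoe among them (0.40, adjusted p = 0.00366), against 27.8% of all genes. In the 5 WT mice of batch 2 with both eyes, the 6 genes were higher in the cytokine eye in all 5.

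In Sarm1-/- mice IL1A+TNF raised the same 6 genes as in batch 2 WT mice, and Lpl fell. Of all genes, 43.5% differed in either direction in this comparison. Trem2 ranged from 1.89 over 2.22 to 2.51 CPM in 6 Sarm1-/- PBS retinas and from 4.41 over 4.85 to 7.09 CPM in 6 Sarm1-/- IL1A+TNF retinas. Tyrobp ranged from 3.57 over 4.79 to 10.3 CPM and from 12.2 over 27.4 to 47.9 CPM. Neither gene overlapped between the groups, and for Clec7a, Itgax, Axl and Spp1 5 of the 6 IL1A+TNF retinas were above every PBS retina. Such separation was not counted over all genes. Sarm1-/- PBS replicates 1 and 2 stood high, at 9.36 and 10.3 CPM for Tyrobp and 8.09 and 8.67 CPM for Clec7a.

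The log2 fold changes in Sarm1-/- mice were 2.32 for Tyrobp (adjusted p = 1.94e-07, limma), 2.17 for Spp1 (7.57e-06), 2.15 for Clec7a (5.73e-07), 2.04 for Itgax (2.44e-05), 1.23 for Trem2 (6.17e-05) and 0.78 for Axl (0.000155). With mouse as a fixed block none of these passed, at adjusted p between 0.133 and 0.186, although the fold changes were near, at 2.27 for Tyrobp, 2.14 for Spp1 and 1.23 for Trem2. Lpl ranged from 23.2 over 26 to 31.7 CPM with PBS and from 13.2 over 22.1 to 27.6 CPM with IL1A+TNF (-0.36, adjusted p = 0.0185), and it missed the threshold in batch 2 alone (0.0848) and without Sarm1-/- IL1A+TNF replicate 4 (0.131). Gpnmb was lower in the IL1A+TNF eye of 6 of 6 mice, at 38.0 to 302.7 CPM against 246.4 to 827.6, but did not pass the test (-1.37, adjusted p = 0.071). Without Sarm1-/- IL1A+TNF replicate 6 Gpnmb passed (0.0473), as did Apoe (0.0462), both lower. With all retinas Apoe (-0.35, adjusted p = 0.21) and Cst7 (0.36, 0.301) did not pass.

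Between the PBS retinas of the genotypes no member differed by limma, edgeR or DESeq2, nor did any have an unadjusted p under 0.05, with 0.0397% of all genes passing. The log2 differences lay between -0.30 for Trem2 and 0.07 for Axl, with adjusted p of at least 0.99. These genotype tests set Sarm1-/- retinas, all of batch 2, against WT retinas of both batches, with batch as a covariate. In IL1A+TNF retinas 4 members were lower in Sarm1-/- than in WT mice, against 10.8% of all genes lower. These were Trem2 (-0.86 ± 0.211, adjusted p = 0.00447, limma), Itgax (-0.85 ± 0.300, 0.043), Apoe (-0.83 ± 0.203, 0.00445) and Lpl (-0.42 ± 0.122, 0.014). Apoe ranged from 157.4 over 315.1 to 577.7 CPM in Sarm1-/- and from 379.6 over 567.3 to 623 CPM in batch 2 WT retinas. Tyrobp (-0.46, adjusted p = 0.227), Clec7a (-0.61, 0.0874), Axl (-0.13, 0.645), Spp1 (-0.01, 0.99), Cst7 (0.04, 0.935) and Gpnmb (-1.20, 0.151) did not pass.

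The test of the genotype difference itself was the treatment effect in Sarm1-/- less that in WT. It passed for 1 of the 10 members, a count near the share of all genes lower, 7.24%. That member was Apoe, at -0.74 ± 0.253 (95% confidence interval -1.25 to -0.241, adjusted p = 0.049, limma), and it missed the threshold by edgeR (0.11) and DESeq2 (0.0696). It also missed it when any 1 of 8 retinas was left out, at adjusted p from 0.0502 to 0.3: Sarm1-/- IL1A+TNF replicates 3, 4 and 5, WT IL1A+TNF replicates 4, 5 and 6 of batch 2 and WT PBS replicates 3 and 5 of batch 2. Lpl (-0.43, adjusted p = 0.0559), Trem2 (-0.56, 0.237) and Spp1 (0.05, 0.966) did not pass.

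Leaving out retinas moved these differences unequally. The 3 female Sarm1-/- IL1A+TNF retinas, replicates 3, 4 and 5, had a mean log2 level of the RGC genes of 4.44, 3.23 and 3.02, against 5.59 to 5.84 in the 3 males. Apoe was 251, 157 and 228 CPM in these females and 379, 388 and 578 in the males, whereas Spp1 was 321, 564 and 656 CPM against 67.7, 124 and 161, and Tyrobp 31, 47.9 and 45.5 against 12.2, 23.7 and 19. The 3 retinas with the lowest RGC score thus had the lowest Apoe and the highest Spp1 and Tyrobp of the 6, and sex and RGC score cannot be told apart among them. Without replicates 4 and 5, the pair with the lowest RGC score, none of the 4 members lower in Sarm1-/- passed, with Apoe at -0.53 (adjusted p = 0.232) and Lpl at -0.33 (0.217), both smaller than with all retinas. Trem2 was at -0.83 (0.0671), near its value with all retinas, and Itgax at -1.06 (0.116), so for these 2 genes the call was lost without a smaller difference. The Apoe genotype by treatment difference was then -0.44 (adjusted p = 0.492), and it was -0.57 (adjusted p = 0.3) without replicate 4 alone. Without replicate 4 alone Trem2 was the 1 member that passed as lower in Sarm1-/-, with Apoe at an adjusted p of 0.0839 and Lpl at 0.19. Itgax missed the threshold by edgeR (0.206) and DESeq2 (0.183) and when any 1 of Sarm1-/- replicates 1, 2, 4 and 5 or WT replicates 1, 3 and 4 was left out, at adjusted p from 0.061 to 0.116. In batch 2 alone Trem2 was still lower in Sarm1-/- (adjusted p = 0.00854, limma), and Itgax, Apoe and Lpl did not pass. Of the rise with IL1A+TNF in Sarm1-/-, 5 genes passed without the same pair, with Axl at 0.49 (adjusted p = 0.0598).

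The lists were counted by genotype as well. In Sarm1-/- mice, IL1A+TNF raised 14 of 16 genes of TREM2-TYROBP and C-type lectin signalling (median 1.49, against 0.0125 over all genes) and 16 of 24 further genes of the disease-associated state, of which 4 fell, where 21.3% of all genes rose and 22.2% fell. In batch 2 WT mice the counts were 15 (median 2.05, against -0.0186) and 17, and 1 fell. These WT counts are from the fit of batch 2 alone, where 13.3% of all genes rose and 7.55% fell. The Sarm1-/- counts are from the fit of all day 2 retinas, so the 2 sets are not like for like. The RGC genes fell in Sarm1-/- retinas, 9 of 9 with a median of -1.28, and the summed RGC level ran from 136.9 to 760.5 CPM in them against 404.6 to 674.5 in WT. Of the pigment genes 5 of 9 fell (median -2.38), and 7 of 15 microglial identity genes and 6 neutrophil genes rose. Between the genotypes in IL1A+TNF retinas, 8 of 15 microglial identity genes and 9 of 9 RGC genes were lower in Sarm1-/-. So were 5 of the 24 genes and 1 of the 16, and none was higher. Of all genes 10.8% were lower, and the 1 of 16 signalling genes was near that share. Over all genes this comparison gave 2988 calls with both batches and 129 in batch 2 alone. For the difference between treatment effects the counts lower were 4 identity genes, 8 RGC genes and 2 of the 24, the last near the 7.24% of all genes. The part of RGC and microglial markers in the differences of Trem2, Itgax, Apoe and Lpl was not tested.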

How the data were processed

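Poly(A) RNA of all retinas was sequenced. The deposited values were raw read counts per gene, which the authors made with STAR 2.7.9a on mm10 and featureCounts of Subread 2.0.1. Strandedness of the counting was not given in the sources used here. Every sample column was mapped to samples by their labels, and 0 columns were left over. Per library 30014757 to 79064488 reads were counted.

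Genes were filtered with filterByExpr (minimum count 10, minimum total 15), scaled by TMM and fitted with limma-voom (limma 3.58.1, edgeR 4.0.16, R 4.3.3). Sex was a covariate, and batch too where both batches entered. Mouse was a block through duplicateCorrelation, run for 2 rounds. The Benjamini-Hochberg adjustment ran over all genes tested, and an adjusted p under 0.05 passed. Separate fits were made for day 2, 14 and 35 of batch 1, for batch 1 jointly, for batch 2 and for all day 2 retinas. CPM values are TMM-scaled, and log2 CPM used a prior count of 2.

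Retinas with the same mouse number come from the same animal, which pairs them. The within-mouse correlation was 0.0515 at day 2, 0.284 at day 14, 0.0794 at day 35, -0.0763 in batch 2 and 0.00525 over all day 2 retinas. Replicates of a group are otherwise separate mice, save for 1 mouse with both eyes in the day 14 PBS group.

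Alternatives were RLE scaling, no filter, edgeR's quasi-likelihood test, DESeq2 1.42.0, no mouse block, mouse as a fixed block, no sex term, single retinas left out, batch 2 alone and a joint fit of batch 1. A pigment score as a covariate, the loss of the 2 Sarm1-/- IL1A+TNF retinas with the lowest RGC score and the loss of both retinas of 1 TNF mouse were added after seeing the data. The fits were tested on simulated counts. The members and lists were chosen with earlier results of these data known. From the lists the text names genes called in the day 2 comparisons, with a mean of at least 1 CPM, by smallest adjusted p and largest fold change.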

Additional observations from a re-analysis of the deposited data

Results flagged for a closer look

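In 110 sets of 5 to 10 retinas, 1 per gene and group, the highest or lowest retina was tested against the rest by Dixon's ratio of its gap to the range. It passed in 8, and chance alone would give about 1 in 20. Of these, 2 belonged to TNF replicate 6 at day 2, the retina whose fellow PBS eye was the higher one: Itgax was 0.385 CPM against 2.80 in the next retina (ratio 0.604) and Spp1 was 16.6 against 42.9 (ratio 0.541). Itgax was also lowest by far in IL1A replicate 7, at 2.69 against 7.74 CPM (ratio 0.643).

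Trem2 was highest in Sarm1-/- IL1A+TNF replicate 6, at 7.09 against 5.199 CPM (ratio 0.654), and lowest in PBS replicate 7 of day 14, at 0.901 against 1.37 CPM (ratio 0.633). Gpnmb was lowest in Sarm1-/- IL1A+TNF replicate 2, at 38.0 against 148.1 CPM (ratio 0.655). In WT IL1A+TNF retinas of batch 2, Apoe was lowest in replicate 3, at 379.6 against 531.9 CPM (ratio 0.681), and Cst7 in replicate 5, at 0.271 against 0.478 CPM (ratio 0.684).

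The effect of IL1A+TNF on Apoe passed the test of a difference between Sarm1-/- and WT mice in the main fit, at -0.74 on the log2 scale (adjusted p = 0.049, limma). Over the alternatives its adjusted p ran up to 0.814, in batch 2 alone, where the difference was -0.73.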

How the results depend on the processing

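Of 62 gene results past the threshold, 739 of 803 values under the alternatives stayed past it in the same direction, 64 missed it and 0 changed direction. Results not past it were followed only where they were listed as given in the text, 58 in all. Of their values, 853 of 925 stayed so, 36 came past it and 36 changed direction. With all retinas TNF raised 2 members, 0 with mouse as a fixed replicate block, 0 to 6 with single retinas left out and 6 without both retinas of the mouse of TNF replicate 6. IL1A+TNF against IL1A gave 0 members, but 1 without the sex term, 2 with the pigment covariate and 1 without that mouse. The departure from additivity gave 0, but 1 with the pigment covariate and 2 without that mouse. In Sarm1-/- mice the fixed replicate block gave 0 of 7. Between genotypes in IL1A+TNF retinas the 4 members became 2 by edgeR, 1 in batch 2 alone, 0 without the 2 retinas of lowest RGC score and 1 to 4 with single retinas left out. The genotype by treatment count of 1 became 0 without the replicate block, by edgeR, by DESeq2, without the sex term, in batch 2 alone and without those 2 retinas, 2 with the pigment covariate and 0 to 2 with single retinas left out. The block changed no other call. The causes were not tested.

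Log2 differences that changed sign with the pigment covariate were Gpnmb after IL1A+TNF (1.3), after TNF (0.46), in batch 2 (0.72) and in Sarm1-/- (0.37), Lpl after IL1A (0.062) and TNF (0.18), Cst7 after IL1A+TNF (-0.0044) and between genotypes (-0.034), Apoe in Sarm1-/- (0.012) and Spp1 between genotypes (0.13). With the fixed replicate block Lpl after IL1A (0.0031) and Apoe after TNF (-0.039) did, and Gpnmb after IL1A by edgeR (-0.13) and DESeq2 (-0.13). Spp1 between genotypes did by edgeR (0.22), by DESeq2 (0.21) and without the sex term (0.0035), and Spp1 in genotype by treatment in batch 2 alone (-0.22) and without the 2 retinas (-0.56). With single retinas left out, Lpl ran from -0.016 to 0.069 after IL1A+TNF and from -0.053 to 0.038 after IL1A, Gpnmb after IL1A from -0.0015 to 0.29, Apoe after TNF from -0.015 to 0.20, Cst7 between genotypes from -0.11 to 0.25, Spp1 between genotypes from -0.26 to 0.31 and Spp1 in genotype by treatment from -0.21 to 0.35.

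Over all genes, TNF at day 2 gave 128 calls, 242 by edgeR, 268 by DESeq2, 557 with the pigment covariate, 245 in the joint fit, 453 without the mouse, 0 with the fixed block and 20 (without replicate 7) to 431 (without replicate 6) with single retinas left out. IL1A gave 4193, of which 56% were higher, and 1232 with the fixed block, of which 79.5% were. IL1A against TNF gave 1774, and 935 without the mouse, and sex 71, and 121 without it. Both batches gave 11043 for IL1A+TNF, 50.8% higher, and batch 2 alone 4110, 63.9% higher. Additivity gave 703, 422 without the filter and 1118 by DESeq2. The TNF effect at day 14 less day 2 gave 0, and 3 by DESeq2, TNF at day 35 gave 0, and 2 with the fixed block, and sex by IL1A+TNF 0, and 1 by edgeR or DESeq2. Sarm1-/- against WT PBS gave 8, and 2 in batch 2 alone. Sarm1-/- IL1A+TNF gave 8768, 2581 without the 2 retinas and 0 with the fixed block. Between genotypes in IL1A+TNF retinas there were 814 higher and 2174 lower, but 656 and 539 by edgeR, 695 and 900 by DESeq2, 129 in all in batch 2 alone, 182 without the 2 retinas and 263 without Sarm1-/- replicate 4. Genotype by treatment gave 304 higher and 1459 lower, but 104 and 77 by edgeR, 201 and 229 by DESeq2, 0 in batch 2 alone or without the 2 retinas and, with single retinas left out, 13 (without Sarm1-/- replicate 4) to 2963 (without replicate 1). The low counts of Cst7 and Itgax at later days limit their precision.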
